A study of Mus musculus with 24 samples.

Results

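The genes described are 9 mouse serpins that lie outside the plasminogen system: Serpina3n, Serpina3g, Serpina3f, Serpina3i, Serpina3m, Serpinb1a, Serpinb6a, Serpinb9 and Serpinh1. They were taken by name from gene families, with earlier results of these data known, and make up 9 of the 52404 gene identifiers present in the tables of both cell types. Every one of the 9 had an identifier in all 24 libraries. Of these, 7 had counts high enough to be tested in astrocytes and 5 in microglia.

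Serpins are protease inhibitors that offer an exposed loop as bait. The target protease cuts the loop, stays covalently bound and is dragged into a distorted, inactive state. Serpina3n is secreted, inhibits leukocyte granule proteases such as granzyme B and neutrophil elastase, and is widely used as a marker of reactive astrocytes. The Serpinb (clade B) proteins act mainly inside the cell: Serpinb1a inhibits neutrophil granule proteases, Serpinb6a inhibits cathepsin G and related proteases, and Serpinb9 inhibits granzyme B. Serpinh1, also called Hsp47, has lost protease inhibition and is a collagen chaperone of the endoplasmic reticulum.

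The 5 Serpina3 members sit on the plus strand of chromosome 12 in a cluster of 14 genes, 10 of them protein coding, that spans 301606 bases (GRCm38, GENCODE M21, as for all gene positions given). From left to right these are Serpina3f (104214544 to 104221129), Serpina3g (104236245 to 104241939), Serpina3i (104263122 to 104269372), Serpina3m (104338486 to 104394257) and Serpina3n (104406729 to 104414329). Serpina3m overlaps exons of Serpina3k on the same strand, and the copies are similar enough that reads could be split between them or set aside as not unique, so the values of the less abundant copies are uncertain.

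The 250 bases before the RefSeq start site of 4 of these genes are shown because the genes are members of 1 cluster whose start regions can be compared. All are on the plus strand of GRCm38.p6, and the letters TTCNNNGAA, the pattern bound by STAT dimers, are in capitals. The windows are chr12:104406458-104406707 for Serpina3n, chr12:104262872-104263121 for Serpina3i, chr12:104235897-104236146 for Serpina3g and chr12:104214294-104214543 for Serpina3f.
Serpina3n: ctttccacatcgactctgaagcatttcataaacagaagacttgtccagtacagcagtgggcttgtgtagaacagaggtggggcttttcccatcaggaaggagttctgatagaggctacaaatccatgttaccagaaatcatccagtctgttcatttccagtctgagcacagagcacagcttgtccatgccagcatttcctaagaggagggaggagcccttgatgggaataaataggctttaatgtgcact
Serpina3i: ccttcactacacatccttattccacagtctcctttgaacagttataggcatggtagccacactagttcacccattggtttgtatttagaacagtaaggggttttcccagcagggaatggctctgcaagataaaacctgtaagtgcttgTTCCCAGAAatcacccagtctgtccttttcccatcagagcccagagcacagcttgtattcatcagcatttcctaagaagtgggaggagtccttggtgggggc
Serpina3g: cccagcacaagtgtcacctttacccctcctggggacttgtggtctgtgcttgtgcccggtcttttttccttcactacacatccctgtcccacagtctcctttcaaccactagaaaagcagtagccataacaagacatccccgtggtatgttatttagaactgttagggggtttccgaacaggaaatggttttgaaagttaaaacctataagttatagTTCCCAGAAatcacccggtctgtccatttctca
Serpina3f: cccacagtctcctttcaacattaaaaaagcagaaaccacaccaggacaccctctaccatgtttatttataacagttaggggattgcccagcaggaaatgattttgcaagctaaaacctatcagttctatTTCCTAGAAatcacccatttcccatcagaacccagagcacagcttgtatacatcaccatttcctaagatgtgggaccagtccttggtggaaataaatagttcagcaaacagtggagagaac

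The STAT letters began 102 bases before the RefSeq start site of Serpina3i, 33 before that of Serpina3g and 121 before that of Serpina3f, and were not in the window of Serpina3n. The windows of Serpina3i and Serpina3f end directly before their GENCODE starts. That of Serpina3g ends at 104236146, well before its GENCODE start at 104236245, so its distance depends on the start site used. The longest run of identical bases was 15 between Serpina3n and Serpina3i, 15 between Serpina3n and Serpina3f, 19 between Serpina3i and Serpina3f, and 17 between Serpina3i and Serpina3g. That last run ends in the STAT letters and the bases after them. Over the 6 pairs of Serpina3 windows the run was 10 to 19 bases, against 7 to 10 in the 15 pairs that involved Serpinb6a, Serpinb9 or Serpinh1.

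RefSeq promoter windows of 300 bases (250 before and 50 after the start) were found for 7 of the 9 genes, and not for Serpina3m and Serpinb1a. The letters of 6 motifs were searched on both strands of these windows and of all 32851 windows in the table. The 7 genes had 9 windows, and a gene was counted if any of its windows matched, whereas the shares are per window. TTCNNNGAA occurred in 4 of the 7 genes (Serpina3f, Serpina3g, Serpina3i and Serpinb6a) and in 8.3% of all windows. In Serpina3f, Serpina3g and Serpina3i the same bases follow these letters, so the matches in these similar copies are not independent. The interferon response core GAAANNGAA occurred in Serpina3f, Serpinb6a and Serpinb9 and in 8.56% of all windows. In Serpina3f and in a window of Serpinb6a it overlaps the STAT letters. The C/EBP letters TTGCNNAA and the core promoter letters TATAAA occurred in Serpina3f among these genes, against 10.8% and 13.6% of all windows. The heat shock letters GAANNTTC (7.86% of all windows) and the NF-kB letters GGANTTTCC (1.25%) were in none of the 7. Such matches describe the letters and show no binding.

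Astrocytes and microglia had been isolated from adult mice lacking Serpine2 (Serpine2-/-, called knockouts) and from littermates that kept at least 1 working Serpine2 allele (called controls, so that carriers of 1 or of 2 alleles may be mixed), after an injection of saline or of lipopolysaccharide (LPS), a bacterial cell wall component. Each of the 8 groups had 3 libraries of total RNA, with both sexes in the series. Astrocytes came from perfused cerebral cortex digested with papain and microglia from whole brain dounced through Percoll, each then bound to antibody-coated dishes (immunopanning). LPS dose and the time after injection are not given in the sources used here, nor is it stated that each library is a separate animal, so p-values measure the spread between these libraries.

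Gene counts per library were 10944765 to 25135252 in astrocytes and 4506142 to 13621776 in microglia. Serpine2 was the check of the labels. Its CPM (counts scaled to library size with edgeR's TMM factors) separated the genotypes in all 24 libraries, with 16.4 to 22.2 in knockout and 78.2 to 169 in control astrocytes, and 16.9 to 20.7 and 46.6 to 96.5 in microglia. All 8 astrocyte markers were present in the astrocyte libraries, summing to 13926 to 21323 CPM, and all 8 microglia markers in the microglia libraries (1336 to 4967 CPM). Microglia preparations also held markers of neurons (1875 to 2867 CPM), oligodendrocytes (1412 to 4203 CPM) and neutrophils (413 to 2590 CPM), and astrocyte preparations those of oligodendrocytes (1923 to 5144 CPM). In the microglia LPS control 1 library the sex-linked transcripts went against the labelled sex. The third LPS astrocyte library of each genotype stood apart, with 405 and 895 summed CPM of 12 pan-reactive astrocyte genes where the other 4 LPS libraries had 2669 to 4847.

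In astrocytes Serpina3n rose 87.7-fold after LPS in controls and 72.9-fold in knockouts, and became by far the most abundant of the 9 genes. Saline control libraries had 11.1, 12.4 and 9.52 CPM. LPS control libraries had 1362, 1404 and 135 CPM. The groups did not overlap, and the third LPS library stood far below its partners. Saline knockout libraries had 9.07, 17.1 and 13.1 CPM. LPS knockout libraries had 1111, 1361 and 393 CPM. Here too the groups did not overlap, and the third LPS library was the lowest.

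The fitted log2 fold change was 6.45 in controls (SE 0.88, edgeR adjusted p = 0.0082) and 6.19 in knockouts (SE 0.87, adjusted p = 0.0098). Serpina3n was the 1 member called among 7 tested in each genotype, where 0.929% of the 18188 genes tested were called in controls and 1.56% in knockouts. All-gene medians were -0.00 and 0.04. With the third LPS libraries of the 2 genotypes left out, the values were 6.98 (SE 0.29) and 6.57 (SE 0.29), and 4 members (also Serpina3i, Serpina3m and Serpina3f) and 3 members (also Serpina3i and Serpina3m) were called. Those libraries were the lowest of their groups for Serpina3n, Serpina3i and Serpina3m, so these further calls are no independent support. The call in controls was lost without saline control library 1 (adjusted p = 0.073), 2 (0.067) or 3 (0.075), with log2 values of 6.36 to 6.55, and in knockouts without saline knockout library 1 (0.070), 2 (0.078) or 3 (0.082), with log2 values of 5.98 to 6.43.

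**Figure D1:**
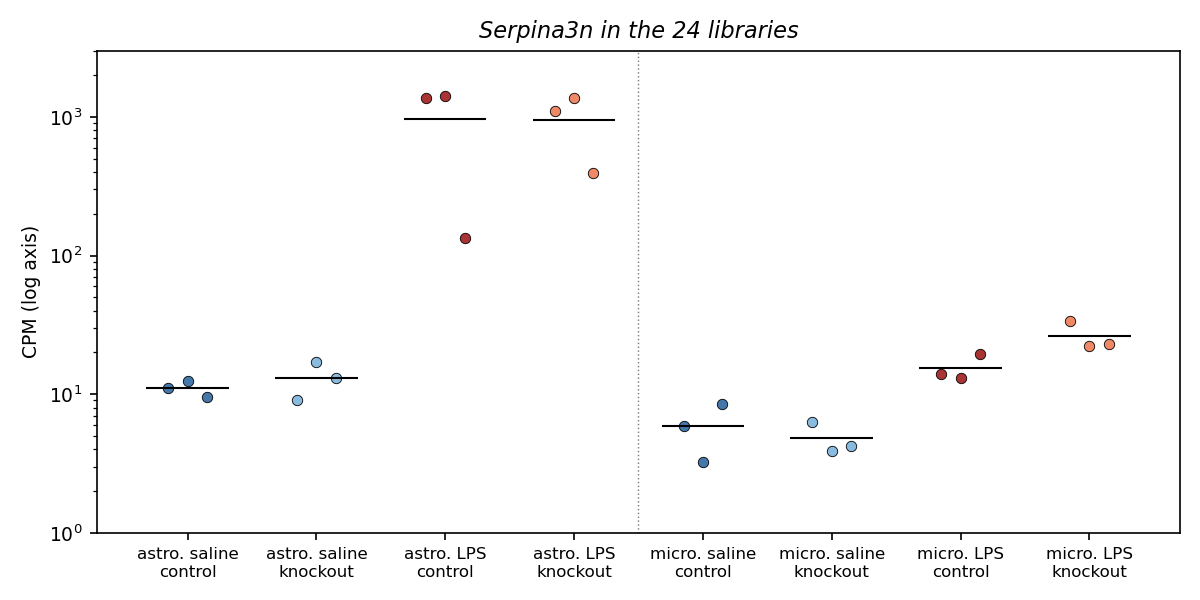
Serpina3n CPM (log axis) in each of the 24 libraries, in 8 groups of 3 with libraries 1 to 3 from left to right. Points are libraries and bars are group means. The 6 LPS astrocyte libraries lie between 135 and 1404 CPM, above every other library, and the third of each LPS astrocyte group is the lowest of its group.

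The rise in Serpina3n went along with that of other reactive genes in the same libraries. Of 12 other pan-reactive astrocyte genes, 12 had positive fold changes and 4 were called in each genotype, with median log2 fold changes of 3.86 in controls and 4.01 in knockouts. Called in both were Lcn2, a secreted iron-scavenging lipocalin (7.26 and 7.39), Gfap, the astrocyte intermediate filament (2.86 and 3.07), and Vim, another intermediate filament (2.22 and 2.34). Hspb1 was the other call in controls (5.20) and S1pr3 in knockouts (3.95). Lcn2 had 27.0 CPM in the third LPS control library and 369 in the third LPS knockout library, against 822 to 1122 in the other 4. Both of those libraries therefore stood low for Serpina3n and for Lcn2, while their astrocyte marker sums (18463 and 13926 CPM) lay in or just below the range of the others (14948 to 21323). What set these libraries apart was not tested.

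**Figure D2:**
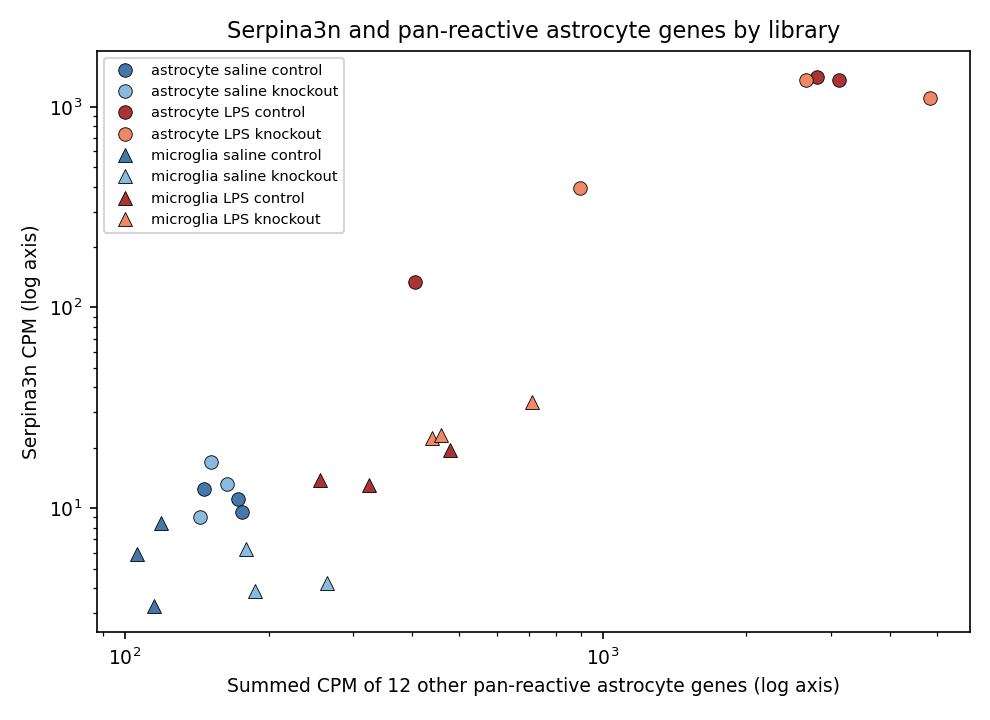
Serpina3n CPM against the summed CPM of 12 other pan-reactive astrocyte genes, both on log axes, with 1 point per library (circles astrocytes, triangles microglia; colours give injection and genotype). The third LPS astrocyte libraries (405 and 895 CPM on the horizontal axis) lie between the saline libraries and the other LPS astrocytes.

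Markers of other cells also moved in the LPS astrocyte preparations. The sum of 8 endothelial markers was 3.57 to 9.76 CPM after saline and 16.0 to 86.7 after LPS, and that of 8 neuron markers 58.6 to 83.7 and 90.9 to 181. Their part in the Serpina3n result was not tested. As in any bulk preparation, a change in RNA per cell and a change in the number of cells of a type cannot be told apart.

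The genes whose log2 CPM followed Serpina3n most closely over the 12 astrocyte libraries, among 7450 compared, were B2m (r = 0.997), the invariant chain of MHC class I, Saa3 (0.993), an acute phase serum amyloid, Lcn2 (0.991), Serping1 (0.990), the C1 inhibitor, and H2-T23 (0.986), a non-classical MHC class I gene. These 12 points share their injection groups, so r describes mainly the step between saline and LPS.

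In microglia Serpina3n rose after LPS in knockouts and stayed far below its LPS astrocyte level. Saline control libraries had 5.87, 3.25 and 8.44 CPM, and saline knockout libraries 6.25, 3.88 and 4.25. LPS control libraries had 13.9, 13.1 and 19.4 CPM. LPS knockout libraries had 33.8, 22.3 and 23.0 CPM. Every LPS library was above every saline library, and every LPS knockout library was above every LPS control library.

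In knockout microglia the rise was 5.58-fold (log2 2.48, SE 0.34, edgeR adjusted p = 0.0016), the 1 call among 5 members tested, where 1.14% of 22230 genes were called. In control microglia it was 2.57-fold (log2 1.36, SE 0.33) and missed the threshold (adjusted p = 0.11), so that edgeR called 0 of 5 members there, 1 of them at an unadjusted p under 0.05, against 0.576% of all genes. DESeq2 called Serpina3n in controls too (log2 1.39, adjusted p = 0.0042), as did edgeR without the saline control 3 library (1.73, adjusted p = 0.038), with library sizes alone (1.52, adjusted p = 0.014) and without a filter on low counts (1.42, adjusted p = 0.0013). Without the LPS control 1 library, whose sex label was in doubt, the control value was 1.49 (adjusted p = 0.13).

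Whether loss of Serpine2 changed the serpins was asked in 4 direct comparisons, and no member was called in any by edgeR or DESeq2. In microglia edgeR did not call the deleted Serpine2 either, although its groups did not overlap. Its log2 differences there were -1.82 (SE 0.27, edgeR adjusted p = 0.19) after saline and -1.90 (SE 0.27, adjusted p = 0.12) after LPS. The absence of calls in microglia therefore does not show that the genotypes were alike. At an unadjusted p under 0.05 in edgeR there were 0 members in either saline comparison, 1 in LPS astrocytes (Serpinh1) and 1 in LPS microglia (Serpina3n). Serpina3n in LPS microglia was at 26.4 ± 6.47 CPM in knockouts and 15.5 ± 3.47 in controls (SD, n = 3 each), 1.71-fold (log2 0.78, SE 0.31). Its unadjusted p was 0.025 in edgeR's test and its adjusted p was 1. The share of all genes called was 0% in this comparison, and 5.74% of genes had groups that did not overlap. The knockout minus control difference in the microglial LPS response was 1.12 (SE 0.47, edgeR unadjusted p = 0.030, adjusted p = 1, with 0% of genes called). Summed levels of pan-reactive genes were 440 to 713 CPM in LPS knockout microglia and 257 to 480 in LPS controls, with overlap. Of 11 such genes tested, 6 had positive fold changes between the LPS groups (median log2 0.44). In the difference of LPS responses 4 were positive (median -0.05). After saline the sums were 179 to 265 CPM in knockout microglia and 106 to 119 in controls. Lcn2 made up much of these saline sums, at 97.4, 120 and 164 CPM in knockouts and 52.9, 56.3 and 59.0 in controls. Neutrophil markers in the same libraries summed to 1406 to 2590 CPM in saline knockouts and 752 to 900 in saline controls, also without overlap. The part of neutrophils in the saline sums was not tested. Astrocyte markers summed to 493 to 610 CPM in LPS knockout microglia and 554 to 575 in LPS controls, with overlap. The sum of 8 endothelial markers did not overlap, at 37.0, 43.7 and 34.0 CPM in LPS knockout and 32.2, 33.9 and 31.5 in LPS control microglia. The part of these other cells in the Serpina3n values was not tested.

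In astrocytes Serpina3n averaged 955 ± 502 CPM in LPS knockouts and 967 ± 721 in LPS controls (SD, n = 3 each). The fitted difference was smaller than its SE (-0.02, SE 0.69, edgeR adjusted p = 1), as it was in saline (0.25, SE 0.71, adjusted p = 1). Without the third LPS libraries the LPS difference was -0.16 (SE 0.27). Serpine2 was the 1 gene called in each astrocyte comparison, 0.0055% of those tested.

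The LPS response of Serpina3n differed between cell types. Fitted on all 24 libraries, the response of control microglia was smaller than that of control astrocytes by a log2 difference of -5.02 (SE 0.79, edgeR adjusted p = 0.0042). It was 1 of 50 genes called, 0.203% of 24607, and the 1 call among 8 members tested. The call held in all 31 alternatives, with values from -5.54 to -4.52.

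Astrocyte markers were also present in the microglia preparations. On the common scale of the 24 libraries, each of 8 astrocyte markers in control microglia was at 0.225% to 1.33% of its astrocyte level after saline (median 0.858%) and at 0.369% to 1.10% after LPS (median 0.896%). Serpina3n was at 14.8% of its astrocyte level in saline controls, above every marker. After LPS it was at 0.468% in controls, within the range of the markers, and at 0.795% in knockouts, where the markers ran from 0.227% to 1.16%. How much of the microglial LPS value came from astrocytes was not tested.

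The other Serpina3 members were near 0 in saline astrocytes and carried few counts even after LPS. Serpina3n held 98.6% to 99.2% of all counts on the 14 cluster genes in every astrocyte group, and 87.8% to 91.3% in every microglia group. In LPS control astrocytes its share was 98.9% (exact 95% binomial interval 98.8 to 99.0), and in LPS control microglia 87.8% (85.0 to 90.2). Intervals cover counting error only, since repeated reads of 1 molecule cannot be recognised in these libraries.

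Serpina3i had 0, 0.0456 and 0 CPM in saline control astrocytes and 8.68, 7.17 and 0.247 after LPS. In knockouts it had 0.106, 0.0489 and 0 CPM after saline and 17.4, 1.72 and 0.510 after LPS. Groups did not overlap in either genotype, and the third LPS library was again the lowest. Summed over a group, 1 count became 285 in controls, a ratio of 364 at equal depth, with a counting interval of 64.8 to 14416, and 3 became 514 in knockouts (140, interval 47.6 to 681). Neither passed edgeR's test (adjusted p = 0.058 in controls and 0.053 in knockouts). Both passed in DESeq2 (adjusted p = 0.0020 and 0.0043) and without the third LPS libraries (0.00030 and 0.00042). Those libraries were the lowest here and stood apart by low reactive genes, so leaving them out gives no independent support.

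Serpina3m had 0 counts in all 6 saline astrocyte libraries. After LPS it had 2.92, 3.44 and 0 CPM in controls and 2.80, 3.50 and 0.153 in knockouts. Against the floor of 3 counts over the saline group, its LPS level was at least 46.4-fold higher in controls (109 counts) and at least 39.2-fold higher in knockouts (144 counts). Its edgeR adjusted p was 0.095 and 0.081, and 0.0020 and 0.0022 without the third LPS libraries. This gene too was at or near 0 in the third LPS library of each genotype, so leaving those libraries out gives no independent support.

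Serpina3f, with too few counts for the test, had 0 counts in saline astrocytes. After LPS it had 3.30, 0.219 and 0.412 CPM in controls and 2.95, 0.215 and 0 in knockouts, so that library 1 of each genotype held most of its counts. Summed over the group, the LPS level was 33.2-fold the saline floor in controls (78 counts, 70 of them in library 1). In knockouts it was 22.9-fold the floor (84 counts, 80 of them in library 1). These ratios rest mainly on that library and set no bound for the others. Without the filter on low counts edgeR called the rise in both genotypes (adjusted p = 0.0010 and 0.0023). That fit put the SE of Serpina3n in control astrocytes at 0.33, where the filtered fit had 0.88. Its calls thus rest on a much smaller estimate of the spread. In microglia Serpina3f had 12 counts in LPS controls and 1 in saline controls, a ratio of 7.34 (1.09 to 314).

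Serpina3g, which encodes Spi2A, an intracellular inhibitor of cathepsins known from activated macrophages and lymphocytes, had a different distribution. In astrocytes it was at 0 counts in 11 of 12 libraries, and the LPS knockout 1 library had 36 counts (1.33 CPM). On the common scale of the 24 libraries that library had the highest value, 2.81 CPM against at most 1.17 in microglia. In control microglia it had 0, 0.342 and 0 CPM after saline and 0.377, 0.968 and 0.967 after LPS. Knockout microglia had 0, 0.0923 and 0.115 CPM after saline and 0.626, 1.91 and 1.86 after LPS. Each LPS group lay above its saline group. Counts went from 2 to 28 in controls (ratio 8.56, interval 2.16 to 74.2) and from 2 to 35 in knockouts (18.4, 4.74 to 158). The gene was below the filter in microglia. Without it edgeR called the rise in knockouts (adjusted p = 0.0031) and not in controls (0.19).

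Lymphocyte genes moved in the same direction in those preparations. The sum of 8 T and NK cell markers was 2.42 to 4.48 CPM in saline microglia, 11.8 to 26.4 in LPS controls and 18.5 to 40.0 in LPS knockouts, with no marker at 0 throughout either LPS group. Microglia marker sums were 2119 to 4967 CPM after saline and 1336 to 2771 after LPS. Their part in the Serpina3g values was not tested.

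**Figure D3:**
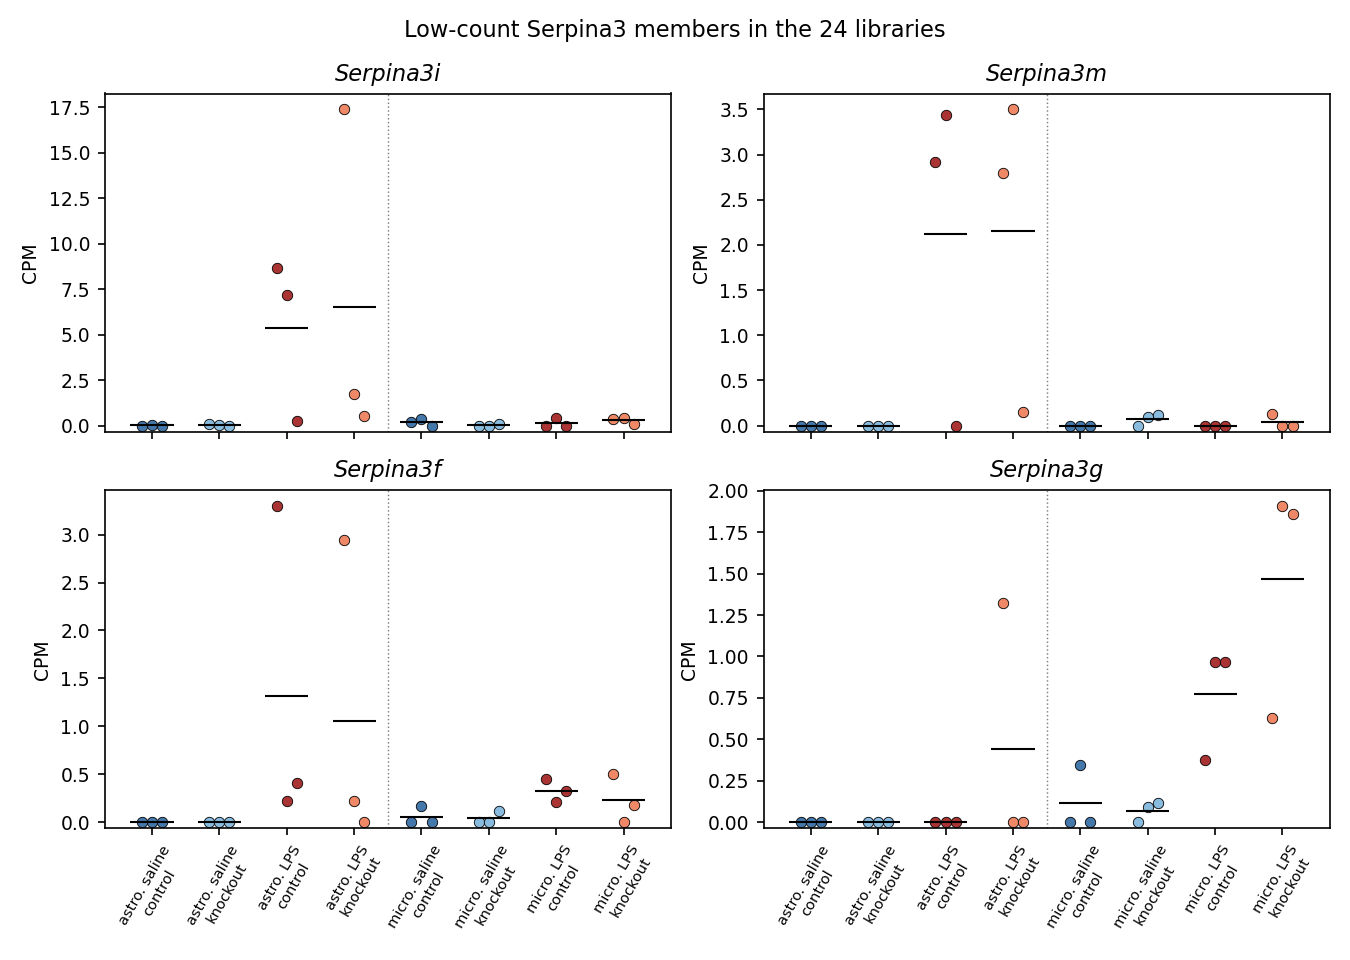
CPM of Serpina3i, Serpina3m, Serpina3f and Serpina3g in the 24 libraries (linear axes that differ between panels, CPM scaled within each cell type). Points are libraries 1 to 3 from left to right and bars are group means. Serpina3i, Serpina3m and Serpina3f have their highest values in LPS astrocytes, up to 17.4, 3.50 and 3.30 CPM. Serpina3g reaches 1.91 CPM in LPS microglia and 1.33 in 1 LPS knockout astrocyte library.

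Of the Serpinb members, edgeR called none for LPS in either cell type, and Serpinb1a (chromosome 13, 32842092 to 32851185, minus strand) had the largest fitted differences. It had 10.4, 10.5 and 6.92 CPM in saline control astrocytes and 1.46, 3.44 and 4.53 after LPS, 2.97-fold less and without overlap (log2 -1.57, SE 0.66, edgeR adjusted p = 0.34). Without a filter on low counts, where its SE was 0.48, edgeR called this difference (adjusted p = 0.046), the 1 alternative in which a Serpinb member was called for LPS. In knockout astrocytes it had 6.86, 7.87 and 3.44 CPM after saline and 0.442, 2.32 and 6.53 after LPS, with overlap (log2 -0.98, SE 0.65, adjusted p = 0.58). In both genotypes the first LPS library was the lowest and the third the highest, whereas the third was the lowest for Serpina3n.

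Microglia showed a lower mean of Serpinb1a after LPS as well. Controls had 12.4, 9.76 and 7.17 CPM after saline and 6.71, 7.88 and 3.87 after LPS (log2 -0.65, SE 0.38, edgeR adjusted p = 0.78). Knockouts had 14.4, 9.14 and 11.6 CPM after saline and 7.89, 7.42 and 2.74 after LPS, without overlap (log2 -0.98, SE 0.39, adjusted p = 0.47). The sum of 11 neutrophil markers was also lower after LPS in the knockouts. It was 1406, 1660 and 2590 CPM after saline and 1102, 936 and 413 after LPS, without overlap and lowest in LPS library 3. Among the saline knockouts, library 1 had the lowest neutrophil sum and the highest Serpinb1a value. In controls the neutrophil sum was 752 to 900 and 664 to 1009 CPM, with overlap, and no marker was at 0 throughout a microglia group. Its part in the Serpinb1a values was not tested. The 4 fitted values were all negative, and none passed the threshold. Groups did not overlap, in either direction, for 19% of genes in control astrocytes, 17% in knockout astrocytes, 12.7% in control microglia and 13% in knockout microglia.

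Serpinb6a (chromosome 13, 33917918 to 34002794, minus strand) had no LPS difference larger than its SE in any group. It averaged 15.6 ± 1.91 CPM in saline control astrocytes and 15.2 ± 2.09 after LPS, and 24.5 ± 6.79 and 24.4 ± 2.04 CPM in control microglia (SD, n = 3 each). The 4 fitted LPS differences were between -0.11 and 0.23. LPS knockout astrocytes had 13.4, 8.51 and 11.6 CPM, all below the 14.3, 17.6 and 13.8 of LPS controls (log2 -0.45, SE 0.27, edgeR adjusted p = 1), where 5.98% of all genes had groups that did not overlap. In saline the knockouts had 12.0, 14.0 and 10.2 CPM and the controls 17.6, 15.5 and 13.7, with a slight overlap. Exons of Serpinb6a overlap those of Nqo2, Ripk1 and 1110046J04Rik on the other strand. No strand setting is stated for the counting, so reads of these genes may be mixed or dropped.

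Serpinb9 (chromosome 13, 33003250 to 33017957, plus strand) was the lowest of the Serpinb genes per length in saline astrocytes and in all microglia groups. Astrocyte libraries had 3.37 to 6.53 CPM over all 4 groups, with LPS differences smaller than their SE. Control microglia had 1.55, 2.22 and 1.72 CPM after saline and 2.26, 3.04 and 3.22 after LPS, just without overlap (log2 0.63, SE 0.48, edgeR adjusted p = 0.87). Knockout microglia had 3.12, 0.646 and 1.38 CPM after saline and 4.51, 1.91 and 3.01 after LPS, with overlap (0.99, SE 0.49, adjusted p = 0.70). These microglial values rest on 7 to 44 counts per library.

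Serpinh1 (chromosome 7, 99345376 to 99353239, minus strand) was higher in astrocytes than in microglia and spread widely among LPS astrocyte libraries. Saline control astrocytes had 17.6, 18.5 and 17.9 CPM and saline knockouts 20.2, 23.9 and 19.0, slightly higher without overlap (log2 0.22, SE 0.37, edgeR adjusted p = 1, with 9.09% of genes not overlapping). LPS controls spread over 13.6, 5.85 and 21.6 CPM and LPS knockouts over 14.1, 24.8 and 33.1. Knockouts averaged 1.76-fold more after LPS, with overlapping groups (log2 0.81, SE 0.38, unadjusted p = 0.046 in edgeR, adjusted p = 1). Microglia had 1.20 to 4.67 CPM in all 4 groups, and no LPS difference there passed the test (adjusted p = 0.86 in controls and 0.98 in knockouts).

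**Figure D4:**
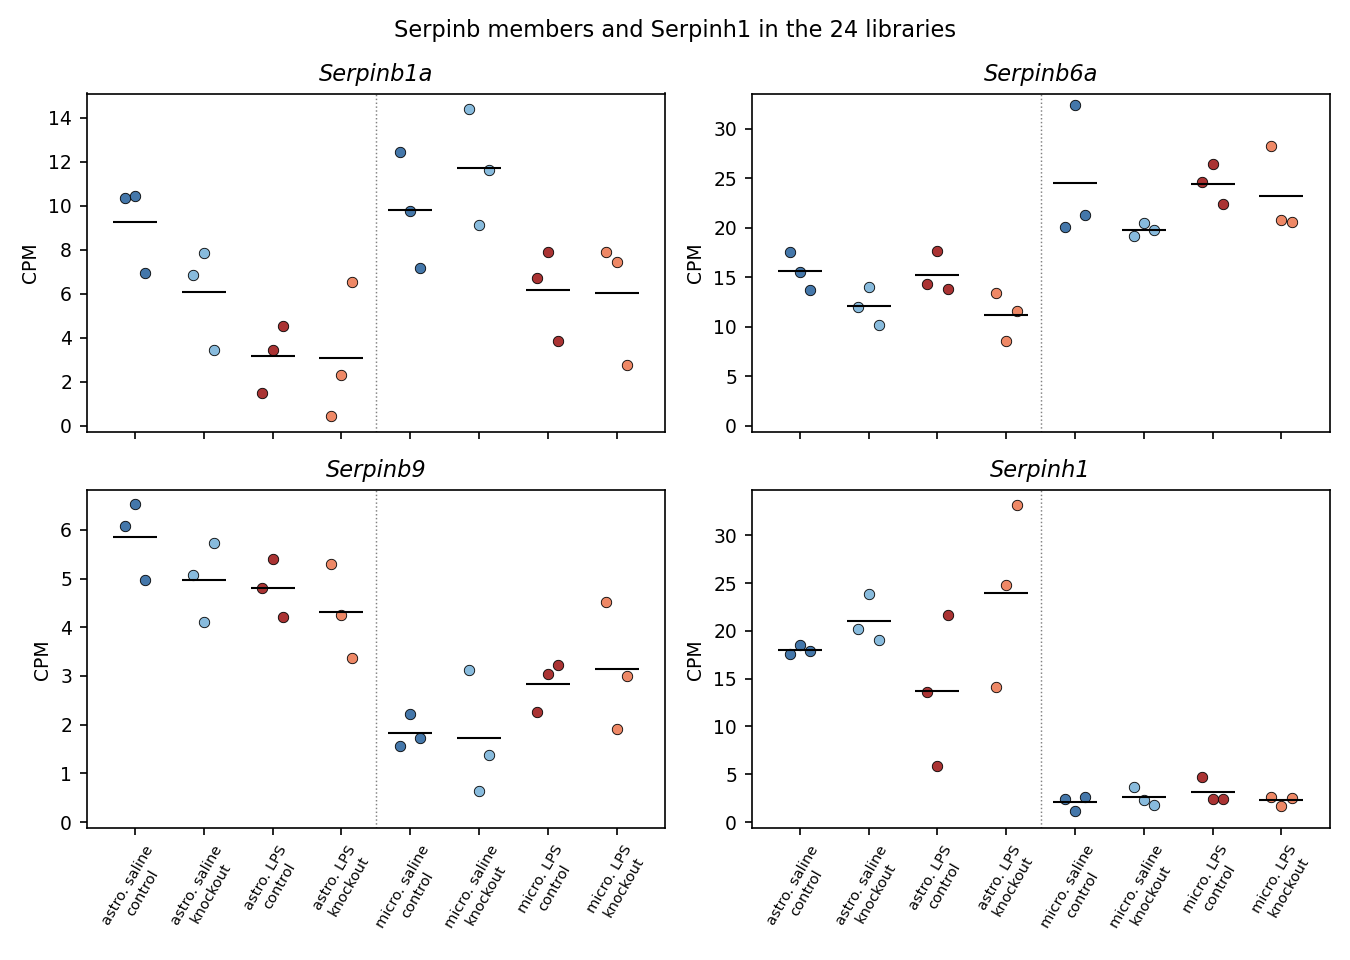
CPM of Serpinb1a, Serpinb6a, Serpinb9 and Serpinh1 in the 24 libraries (linear axes that differ between panels, CPM scaled within each cell type). Points are libraries 1 to 3 from left to right and bars are group means. Serpinb1a means are lower after LPS in every pair of groups, and Serpinh1 is spread from 5.85 to 33.1 CPM over LPS astrocytes.

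**Figure D5:**
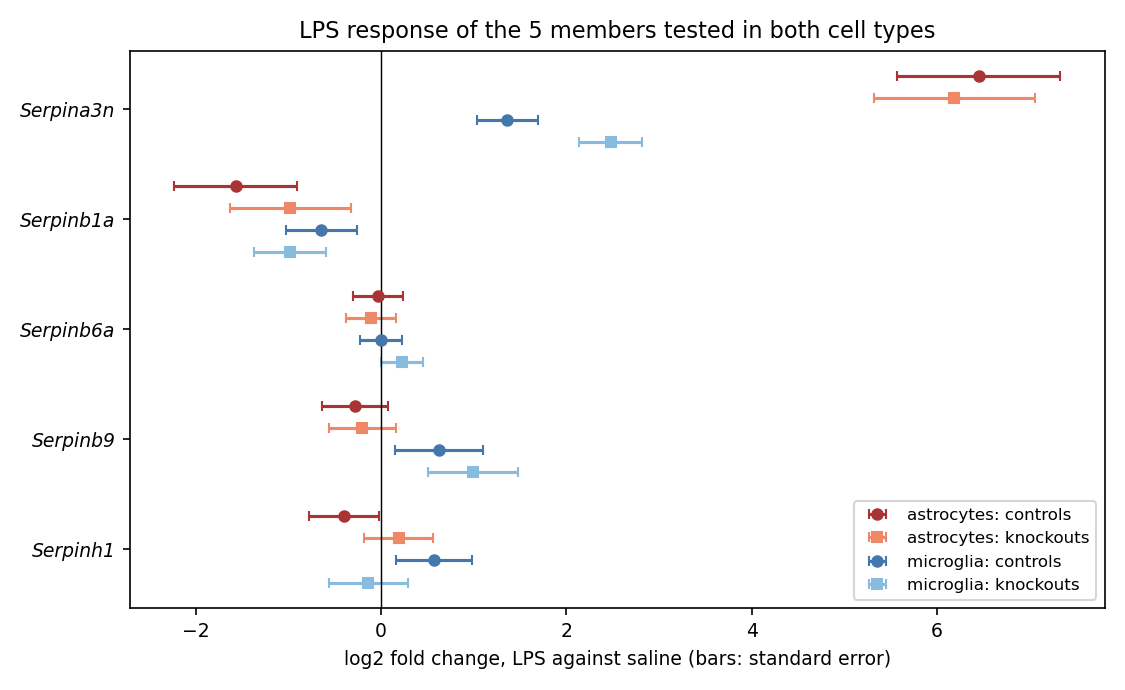
Log2 fold change of LPS against saline for the 5 members tested in both cell types, with 1 point per cell type and genotype and bars of 1 standard error. Serpina3n stands at 6.45 and 6.19 in astrocytes and at 1.36 and 2.48 in microglia, and the other members lie between -1.57 and 0.99.

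Per kilobase of exon, the order of the genes changed with LPS in astrocytes. In saline controls Serpinh1 came first at 7.37 ± 0.193 CPM per kb, then Serpina3n at 5.34 ± 0.702, Serpinb1a at 4.01 ± 0.873, Serpinb6a at 2.88 ± 0.353 and Serpinb9 at 1.68 ± 0.228 (SD, n = 3 each). Of these neighbours, Serpinb1a and Serpinb6a overlapped. After LPS Serpina3n led at 469 ± 349 CPM per kb in controls, ahead of Serpinh1 at 5.60 ± 3.22. In saline control microglia Serpinb6a (4.54 ± 1.25), Serpinb1a (4.25 ± 1.14) and Serpina3n (2.84 ± 1.26) overlapped with their neighbours and stood above Serpinh1 (0.853 ± 0.317) and Serpinb9 (0.525 ± 0.0997). After LPS Serpina3n was first in microglia as well, at 7.49 ± 1.68 in controls and 12.8 ± 3.13 in knockouts.

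Between the saline controls of the cell types, 5 of 8 members tested were called lower in microglia, where 55.7% of all genes were called and 23.6% were called lower. The members tested and not called had almost no counts in these groups. Summed counts in microglia and astrocytes were 2 and 0 for Serpina3g, 3 and 1 for Serpina3i, and 0 and 0 for Serpina3m. The log2 differences were -4.91 for Serpinh1 (SE 0.46), -3.50 for Serpinb9 (SE 0.48), -2.72 for Serpina3n (SE 0.57), -1.75 for Serpinb1a (SE 0.60) and -1.17 for Serpinb6a (SE 0.26), against an all-gene median of 0.38. Scaling matters here. With library sizes alone the all-gene median was 1.98, Serpinh1 (-3.32) and Serpinb9 (-1.88) were still called, Serpina3n (-1.12, edgeR adjusted p = 0.052) and Serpinb1a (-0.12) were not, and Serpinb6a turned to 0.46 (adjusted p = 0.16). Without microglia saline control library 3, Serpinb1a also lost its call (-1.53, adjusted p = 0.070). Cell type cannot be told apart from brain region, dissociation method and count table, since these changed together.

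The serpins and proteases around these genes were read from lists of family members and targets. Of 46 other serpins outside the plasminogen system, 6 were tested in astrocytes, and Serping1, the inhibitor of complement C1, was the 1 called with LPS in each genotype (log2 6.08, SE 0.91, edgeR adjusted p = 0.013 in controls, and 6.32, SE 0.93, 0.011 in knockouts). The list medians were 0.53 and 0.86. Its LPS control libraries ran from 10.6 to 151 CPM and its saline control libraries from 0.821 to 1.79. Like Serpina3n, Serping1 had a smaller LPS response in control microglia than in control astrocytes (-5.43, SE 0.81, adjusted p = 0.0026), and in microglia edgeR called 0 of 7 other serpins in either genotype (DESeq2 called 0 and 1, and 0 and 2 had an unadjusted edgeR p under 0.05).

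Of 16 leukocyte and lysosomal proteases that such serpins are known or thought to meet, 13 were tested in microglia. Gzma, a granzyme, rose with LPS by log2 5.09 in controls and 4.73 in knockouts, and Gzmb, whose product Serpinb9 and Serpina3n inhibit, by 4.94 and 5.74 (edgeR adjusted p from 0.0014 to 0.0075). The other listed granzymes, Gzmk and Gzmm, looked up after their values were seen, were not called. Gzmk averaged 0.754 CPM after saline and 1.25 after LPS in controls, and 1.30 and 1.16 in knockouts. Gzmm averaged 1.75 and 1.60 CPM in controls, and 1.59 and 1.32 in knockouts. Ctsc, a lysosomal peptidase that activates granule proteases, rose by 1.86 in knockouts (adjusted p = 0.012). The list medians were 0.96 and 0.19. Gzma is also among the T and NK cell markers whose sums rose in these preparations, as given above. In astrocytes 5 were tested, and all 5 had positive LPS fold changes in each genotype, with list medians of 0.95 in controls and 1.35 in knockouts. In knockouts edgeR called Ctsh (3.02, adjusted p = 0.043), DESeq2 called 4, and 5 had an unadjusted edgeR p under 0.05. In controls edgeR called 0, DESeq2 called 2, and 4 had an unadjusted edgeR p under 0.05.

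Of 19 collagen genes and collagen folding partners of Serpinh1, 18 were tested in astrocytes. With LPS, edgeR called 0 in controls (DESeq2 called 2, and 7 had an unadjusted edgeR p under 0.05) and 2 in knockouts, Col4a1, a basement membrane collagen (log2 3.06, adjusted p = 0.034), and Sparc, a collagen-binding matrix protein (1.33, adjusted p = 0.037), with list medians of 0.44 and 0.26. In microglia edgeR and DESeq2 called 0 of 19 in either genotype, with 0 and 3 at an unadjusted p under 0.05. Endothelial markers, whose sums were higher in LPS astrocytes, stood beside Col4a1 in the same libraries, and their part was not tested. Of 14 heat shock genes tested in astrocytes, Hspb1 was called in controls after LPS (5.20), and edgeR called 0 in knockouts (DESeq2 called 1, and 4 had an unadjusted edgeR p under 0.05), with medians of -0.09 and -0.06. Between saline controls of the cell types, edgeR called 11 of 14 heat shock genes lower in microglia and 0 higher, where 23.6% of all genes were called lower. With library size alone, which moved the all-gene median from 0.38 to 1.98, the calls were 6 lower and 4 higher.

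For Serpinh1 and Serpinb6a the closest followers were looser than those of Serpina3n. In astrocytes Serpinh1 was followed most closely by Nit1 (r = 0.916) and Rnf215 (0.892), and Serpinb6a by Rint1 (0.870) and Arsg (0.857), over 12 libraries and 7450 genes. In microglia Serpina3n was followed by Mcm2 (0.964), a replication helicase subunit, and Ddx39 (0.959), Serpinh1 by Mrpl19 (0.865) and Car14 (0.848), and Serpinb6a by Pdcd5 (0.914) and Ndufaf7 (0.889). Many genes were compared with 12 points each, and values of this size describe these libraries.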

How the data were processed

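Counts are whole-number reads per Ensembl gene, as the authors deposited them. Per the submitters' processing notes, STAR 2.6.0c and HTSeq were used; GRCm38 and GRCm39 are both named, and strand setting and annotation release are not given in the sources used here. Reads not unique to a place were 16.1% to 24.0% in astrocytes and 5.58% to 13.0% in microglia, and reads outside genes 15.9% to 21.1% and 56.2% to 72.7%. These non-gene rows were left out.

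edgeR 4.0.16 (R 4.3.3) was fitted to 12 libraries per cell type, or to all 24, after filterByExpr (minimum count 10, total 15), with TMM scaling and robust quasi-likelihood tests. This left 18188, 22230 and 24607 genes. A gene was called when its p, adjusted by Benjamini-Hochberg across the whole table, was under 0.05. Fold changes come from the fit. Each edgeR SE was worked back from the test, as the absolute log2 value divided by the square root of its F statistic. Genes below the filter are given by counts, with exact 95% counting intervals or a floor of 3 counts per group. CPM per kb used GENCODE M21 exon lengths. Scripts were tested on simulated data.

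Members and lists were chosen with earlier results of these data known. Members are all named; from each list up to 4 called genes per comparison by smallest p, and the 5 genes most correlated with Serpina3n, Serpinh1 and Serpinb6a (mean of at least 8 CPM) could be named. No protein comparison was made. Deviations of same-numbered libraries of the 2 genotypes correlated in all 3 LPS astrocyte pairs (r 0.59, 0.28 and 0.63), in 1 pair each of saline (0.70) and LPS microglia (0.55), and in the others at -0.31 to 0.06. Alternatives were other scaling (RLE, or library size alone), DESeq2 1.42.0, filters, sex, a replicate block, only the groups compared, and libraries left out.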

Additional observations from a re-analysis of the deposited data

Results flagged for a closer look

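The LPS response of Serpina3n in control microglia minus that in control astrocytes was -5.02 on the log2 scale (edgeR, SE 0.79, adjusted p = 0.0042). It stands out because the response differed between the cell types by a test of the difference itself. All 3 LPS libraries were above all 3 saline libraries in each cell type. Groups did not overlap, in either direction, for 19% of genes in control astrocytes and 12.7% in control microglia. In control microglia the rise itself was not called (edgeR adjusted p = 0.11). Its LPS level there was 0.468% of the astrocyte level, where astrocyte markers ran from 0.369% to 1.10%. The part of astrocytes in that value was not tested. Cell type went together with brain region and preparation, and these cannot be told apart.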

How the results depend on the processing

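Serpina3n kept its direction in all alternatives for the LPS comparisons, at 6.08 to 6.98 in control astrocytes, 5.84 to 6.57 in knockout astrocytes, 1.14 to 1.73 in control microglia and 2.27 to 2.68 in knockout microglia. It was called in 17 of 21, 18 of 21, 5 of 21 and 21 of 21. In control astrocytes the call was also lost with only the groups compared (adjusted p = 0.064). The number of members called moved from 1 with LPS in control astrocytes to 2 with DESeq2, 5 without a filter on low counts, 3 with sex as a covariate, 3 with a replicate block, 0 with only the groups compared, 4 without the third LPS libraries and 2 with library size alone. In knockout astrocytes it moved from 1 to 2 with DESeq2, 4 without a filter, 2 with a minimum count of 50, 3 with sex, 3 with the replicate block, 2 with only the groups compared, 3 without the third LPS libraries and 2 with library size alone. With the block these were Serpina3n, Serpina3i (adjusted p = 0.0011 in controls and 0.0018 in knockouts) and Serpina3m (0.028 and 0.019). In control microglia it moved from 0 to 1 (Serpina3n, with the block 1.41, adjusted p = 0.048) with DESeq2, without a filter, with the replicate block or with library size alone. In knockout microglia it moved from 1 to 2 without a filter, and for the difference between cell types in the LPS response from 1 to 2 without a filter. Between saline controls of the cell types it moved from 5 to 2 with library size alone. Leaving out each library in turn gave 0 to 3 members in control astrocytes, 0 to 3 in knockout astrocytes, 0 to 1 in control microglia and 1 to 2 in knockout microglia. Knockout comparisons within a cell type stayed at 0 in every alternative. Without a filter the SE of Serpina3n for LPS was 0.33 in control and 0.33 in knockout astrocytes, against 0.88 and 0.87 with it. The added astrocyte calls of that fit rest on this smaller estimate of the spread.

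Differences of Serpina3n between genotypes that were smaller than their SE changed sign. In LPS astrocytes the value became 0.11 with sex as a covariate, 0.11 with the replicate block and 0.39 with pairs blocked within an injection, and ran from -0.53 to 0.36 with each library left out. The genotype difference in the astrocyte LPS response became 0.17 with that pairing and ran from -0.78 to 0.10 with each library left out. In saline microglia the value ran from -0.57 to 0.033 with each library left out, the last of these without saline control library 3. Serpinb6a between saline controls of the cell types became 0.46 with library size alone. The replicate block changed no other call than those given and that of Serpinb1a between cell types (-1.04, adjusted p = 0.22). Library size alone, pairs within an injection, and sex read from transcripts were chosen after seeing the data. At the depth of the microglia libraries, 4 Serpina3 members had too few counts for the test.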
